A study of Mus musculus with 20 samples.

Results

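Interferon-stimulated genes are the genes that cells switch on when an interferon binds its receptor, and 34 of them were followed in the visceral adipose tissue (VAT) of mice. They were chosen by name, as well-known members of the response, with earlier results of these data known. Every array spot carrying one of these gene names was taken. The arrays held 57 distinct probes for the 34 genes, among 37074 gene names in all. Testing required a probe well above background on 6 or more arrays, which held for 33 of the 34 members and for 25618 genes of the whole array. The exception was Oas3, whose single probe was well above background on 1 of the 20 arrays. Each gene is reported by its brightest tested probe, and another probe is given where its call or its sign differed in the comparison of diets in the control lineage.

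The study asked how epididymal fat responds to an obesogenic diet in mice whose parents and grandparents had eaten a fish oil rich in eicosapentaenoic acid (EPA, an omega-3 fatty acid). All animals were male C57bl/6J mice of the third generation (F3), and every lineage had received an oil supplement. The Ref group (6 mice, labelled STD Cont) came from the lineage given high-oleic sunflower oil and ate a standard, normocaloric diet. The HFoleic group (6 mice, labelled HFD Cont) came from the same lineage and ate the high-fat, high-sucrose diet. The HFepa group (8 mice, labelled HFD O3) came from the lineage given EPA-rich oil and ate the high-fat, high-sucrose diet. No EPA-lineage mice on the standard diet were analysed here, so lineage was compared under 1 diet only. Total RNA of the whole fat pad was hybridised with 1 array per mouse, so the values mix adipocytes with every other cell of the pad.

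Type I interferons act through the receptor subunits IFNAR1 and IFNAR2, and many of their target promoters carry the interferon-stimulated response element (ISRE). Interferon gamma acts through IFNGR1 and IFNGR2, and many of its target promoters carry the gamma-activated site (GAS). The targets include antiviral effectors, sensors of foreign nucleic acid, guanylate-binding proteins and the machinery that cuts and carries peptides to MHC class I. In fat, these genes are expressed by adipocytes, by macrophages and by other immune and stromal cells.

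The promoters show which of these elements the members carry. In the RefSeq table of promoters (GRCm38.p6, a window lying mostly upstream of each start), 29 of the 34 members were listed, and Zbp1, Oas2, Usp18, Rtp4 and Parp14 were missing. The ISRE core, GAAANNGAAA on either strand, was present in 14 of the 29 (48.3%), against 3.99% of the 27025 symbols in the table. The GAS letters, TTCNNNGAA, which read the same on both strands, were present in 9 of the 29 (31%), against 9.55% of symbols. The 160 bases just before the start of 4 members that rose with the diet are printed first, and those of 2 members that did not pass the test second, with each ISRE match in capitals. The strand named is that of the gene.

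Ifit3, chr19:34583369-34583528, plus strand: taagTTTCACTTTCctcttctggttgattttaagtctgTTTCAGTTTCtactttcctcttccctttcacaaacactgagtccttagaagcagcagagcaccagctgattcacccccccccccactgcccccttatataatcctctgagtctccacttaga
Oas1a, chr5:120907526-120907685, minus strand: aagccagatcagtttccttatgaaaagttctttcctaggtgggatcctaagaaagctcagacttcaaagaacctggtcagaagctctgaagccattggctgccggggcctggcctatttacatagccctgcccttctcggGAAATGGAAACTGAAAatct
Gbp2, chr3:142620503-142620662, plus strand: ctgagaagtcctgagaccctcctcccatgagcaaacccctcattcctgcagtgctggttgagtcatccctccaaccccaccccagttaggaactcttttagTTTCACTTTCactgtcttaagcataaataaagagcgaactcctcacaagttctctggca
Gbp3, chr3:142559884-142560043, plus strand: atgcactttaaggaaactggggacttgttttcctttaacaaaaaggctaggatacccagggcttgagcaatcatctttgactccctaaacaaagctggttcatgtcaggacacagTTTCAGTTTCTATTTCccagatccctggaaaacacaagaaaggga
Isg15, chr4:156200819-156200978, minus strand: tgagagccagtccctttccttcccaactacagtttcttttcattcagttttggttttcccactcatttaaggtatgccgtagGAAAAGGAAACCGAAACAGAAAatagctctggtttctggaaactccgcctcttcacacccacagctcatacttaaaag
Ifit1, chr19:34640729-34640888, plus strand: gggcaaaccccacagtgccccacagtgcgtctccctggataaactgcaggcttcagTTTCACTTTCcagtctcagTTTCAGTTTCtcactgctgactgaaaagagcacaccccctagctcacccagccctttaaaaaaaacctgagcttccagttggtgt

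The windows of Isg15 and Ifit1 hold 3 and 2 ISRE matches, and those of Ifit3, Oas1a, Gbp2 and Gbp3 hold at least 1 each. A match describes letters in this stretch and shows neither binding nor control.

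The high-fat diet in the control lineage was accompanied by a partial rise of the group. In HFoleic vs. Ref, 13 of the 33 tested members passed the test (limma, adjusted p under 0.05), 11 of them higher and 2 lower, while 31.8% of all tested genes passed, 15.2% higher and 16.7% lower. The highest differences were those of Irf8, Zbp1 and Oas1a. The called members that fell were Isg20 and Trim25, and the other probes of Trim25 did not fall, as described below. The median log2 difference over the 33 members was 0.25, beside -0.04 over all tested genes. Of the 33, 26 had a positive and 7 a negative difference. The signals of the HFoleic and Ref mice did not overlap for 6 members, 5 of them higher (Irf8, Ifit3, Oas1a, Psmb8, Psmb9) and 1 lower (Isg20), while 14.0% of all tested genes were without overlap. Each of the 13 called members had the same sign within each of the 3 array slides, as did 99.2% of all genes called. These are measurements of bulk tissue, in which fewer cells of a type and less RNA per cell cannot be told apart.

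**Figure D1:**
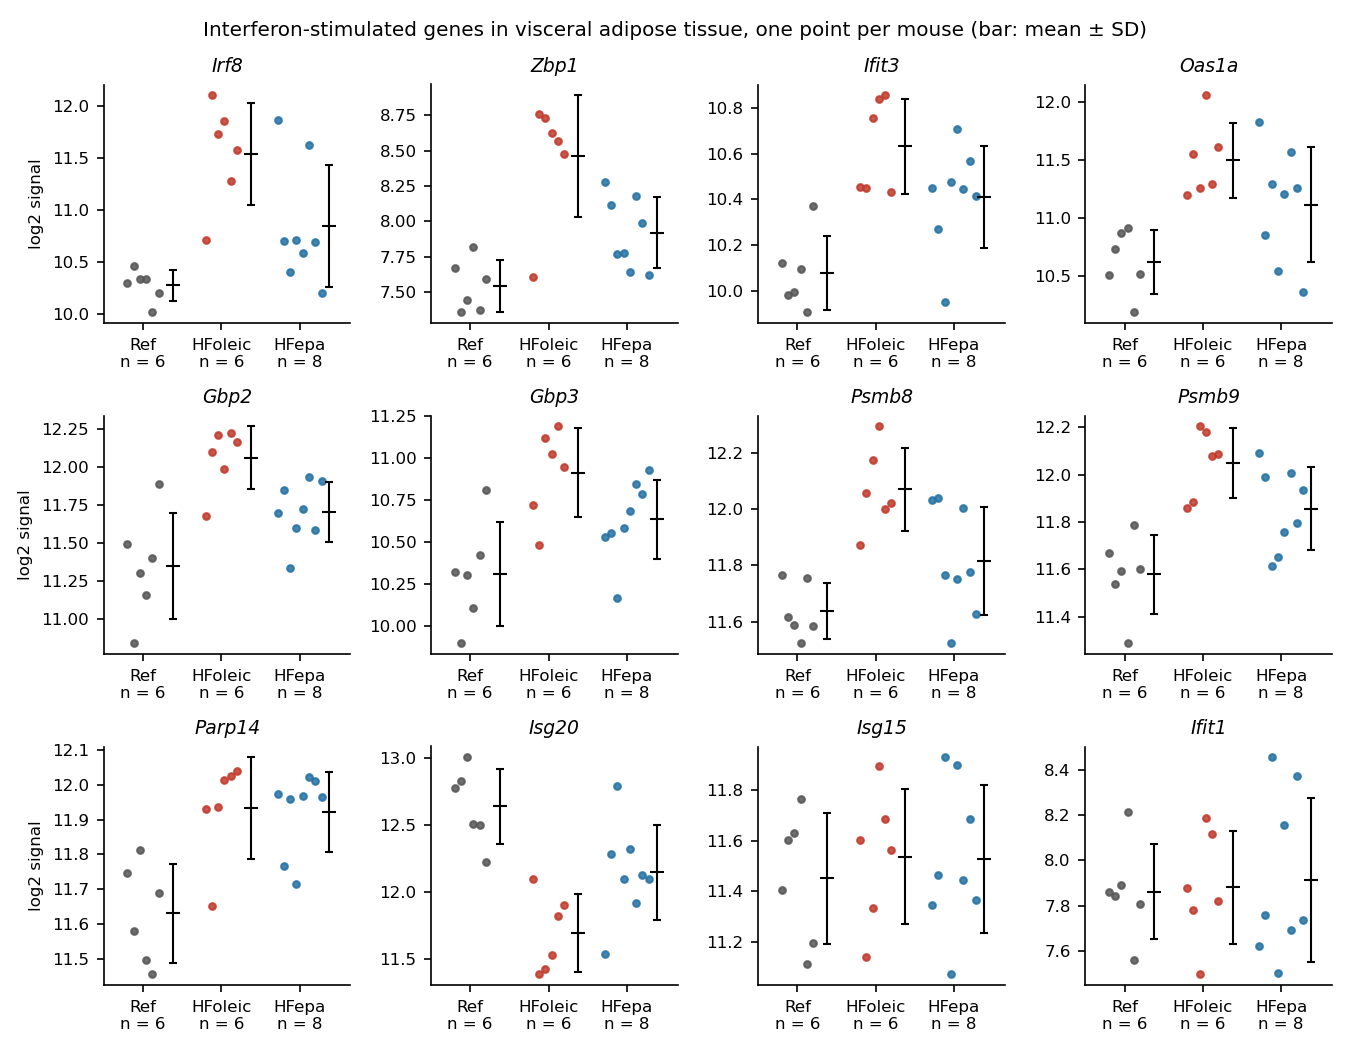
Log2 signal (vertical axis, quantile normalised) of 12 members in each Ref, HFoleic and HFepa mouse, 1 point per mouse, with the group mean ± SD as a bar. Irf8, Ifit3, Oas1a, Psmb8 and Psmb9 lay higher and Isg20 lower in every HFoleic mouse than in any Ref mouse, while the groups overlapped for Isg15 and Ifit1.

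Among the transcription factors, only Irf8 passed the test. Irf8, a factor of myeloid and dendritic cell development, had log2 signals of 10.02, 10.32 and 10.46 (lowest, median and highest) in Ref. They were 10.72, 11.65 and 12.10 in HFoleic and 10.20, 10.70 and 11.87 in HFepa. Every HFoleic mouse lay above every Ref mouse, and the HFepa mice spanned both ranges. The HFoleic vs. Ref log2 difference was 1.26 (SE 0.25, 2.4-fold, limma adjusted p = 0.00136), and a second Irf8 probe gave 0.89 (adjusted p = 0.00767). The other factors did not pass with their brightest probes. Irf7, the factor that amplifies type I interferon production, differed by -0.14, Irf9 by 0.12, Stat2 by 0.15 and Irf1, the early factor of the interferon gamma response, by 0.08. Another Irf1 probe gave 0.28 and passed (adjusted p = 0.0472), and another Stat2 probe gave -0.14 (adjusted p = 0.235).

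Of the 3 sensors, Zbp1, which recognises Z-form nucleic acids and can trigger cell death, rose. Its log2 signals were 7.36, 7.52 and 7.82 in Ref, 7.60, 8.60 and 8.76 in HFoleic, and 7.62, 7.88 and 8.28 in HFepa. Of the HFoleic mice, 5 lay above all Ref mice, and the remaining one lay within the Ref range. The HFoleic vs. Ref log2 difference was 0.92 (SE 0.17, 1.89-fold, adjusted p = 0.000754). The RNA helicases Ifih1 (MDA5) and Ddx58 (RIG-I) differed by 0.08 and 0.13 and did not pass.

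The IFIT proteins bind viral RNA, and 1 of the 3 rose. Ifit3 had log2 signals of 9.91, 10.04 and 10.37 in Ref, 10.43, 10.61 and 10.86 in HFoleic, and 9.95, 10.45 and 10.71 in HFepa. The HFoleic mice were all above the Ref mice, with a log2 difference of 0.56 (SE 0.11, adjusted p = 0.00163). Ifit1 and Ifit2, which sit beside Ifit3 on chromosome 19, differed by 0.02 and 0.11. The medians of Ifit1 were 7.85 in both Ref and HFoleic, although its promoter window, printed above, carries the same number of ISRE matches as that of Ifit3.

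The OAS proteins make the 2′-5′ oligoadenylates that activate RNase L, and Oas1a was the member of this family to rise. Its log2 signals were 10.19, 10.62 and 10.91 in Ref, 11.20, 11.42 and 12.06 in HFoleic, and 10.37, 11.23 and 11.83 in HFepa. The Ref and HFoleic mice did not overlap, and the log2 difference was 0.87 (SE 0.21, adjusted p = 0.00451). Oas2 differed by -0.03, Oasl1 by 0.44 (adjusted p = 0.162) and Oasl2 by 0.29, none past the test, and Oas3 was not tested.

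ISG15 is a ubiquitin-like protein that is joined to other proteins during the response, USP18 removes it, and TRIM25 is a ligase that acts in RIG-I signalling. Isg15 had log2 signals of 11.11, 11.51 and 11.77 in Ref, 11.14, 11.58 and 11.90 in HFoleic, and 11.07, 11.46 and 11.93 in HFepa. The 3 groups lay over the same range, with a HFoleic vs. Ref log2 difference of 0.08 (SE 0.15, adjusted p = 0.714). The Isg15 probe shares a run of 35 bases with a probe named Gm9706, so the pair cannot be fully separated. Usp18 differed by -0.02. Trim25 is described below, since its probes disagreed.

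Of the 8 other antiviral effectors, 3 rose, 1 fell and 4 did not pass. Isg20, an exonuclease that degrades single-stranded RNA, moved against the other called effectors. Its log2 signals were 12.23, 12.64 and 13.00 in Ref, 11.39, 11.67 and 12.10 in HFoleic, and 11.54, 12.11 and 12.79 in HFepa. Every HFoleic mouse lay below every Ref mouse, with a log2 difference of -0.95 (SE 0.17, adjusted p = 0.000834), and a second Isg20 probe gave -0.86 (adjusted p = 0.0025).

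Parp14, a mono-ADP-ribosyltransferase, had log2 signals of 11.46, 11.63 and 11.81 in Ref, 11.65, 11.98 and 12.04 in HFoleic, and 11.72, 11.97 and 12.02 in HFepa. The HFoleic vs. Ref log2 difference was 0.30 (SE 0.08, adjusted p = 0.00697), and its other tested probe gave 0.02 (adjusted p = 0.943). Cmpk2, a mitochondrial nucleotide kinase that neighbours Rsad2, had log2 signals of 8.36, 8.72 and 8.93 in Ref, 8.77, 8.95 and 9.31 in HFoleic, and 8.43, 8.81 and 9.08 in HFepa. The 3 ranges overlapped, and its HFoleic vs. Ref difference was 0.33 (SE 0.11, adjusted p = 0.0289). Xaf1, a pro-apoptotic antagonist of XIAP, was the weakest of the 13 calls, with a difference of 0.25 (adjusted p = 0.049), and its other probe gave 0.03. With each array left out in turn, Xaf1 was called in 7 of 20 fits and Cmpk2 in 16 of 20, the call of Cmpk2 being lost without HFoleic mouse 6 or 7 or Ref mouse 3 or 5. Bst2 (tetherin) differed by 0.25 (adjusted p = 0.053), Ifi44 by 0.28 (-0.03 with another probe), Rtp4 by 0.25 and Rsad2, the antiviral enzyme viperin, by -0.17.

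The guanylate-binding proteins are GTPases that attack intracellular pathogens and are strong targets of interferon gamma. Gbp2 had log2 signals of 10.84, 11.35 and 11.89 in Ref, 11.68, 12.14 and 12.23 in HFoleic, and 11.34, 11.71 and 11.94 in HFepa, and its HFoleic vs. Ref difference was 0.72 (SE 0.14, adjusted p = 0.00127). Gbp3 had log2 signals of 9.90, 10.31 and 10.81 in Ref, 10.48, 10.98 and 11.19 in HFoleic, and 10.17, 10.63 and 10.93 in HFepa, with a difference of 0.60 (SE 0.15, adjusted p = 0.00468). For both genes the Ref and HFoleic ranges overlapped at their edges. Gbp7 differed by 0.34 and did not pass, and Gbp5 gave -0.19 with its brightest probe, also without passing.

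The immunoproteasome subunits rose by small amounts with little spread. Psmb8, a catalytic subunit that replaces its constitutive counterpart under interferon gamma, had log2 signals of 11.52, 11.60 and 11.77 in Ref, 11.87, 12.04 and 12.30 in HFoleic, and 11.53, 11.77 and 12.04 in HFepa. Psmb9, another such subunit, had 11.29, 11.60 and 11.79 in Ref, 11.86, 12.08 and 12.20 in HFoleic, and 11.62, 11.87 and 12.09 in HFepa. Every HFoleic mouse lay above every Ref mouse for both genes. The differences were 0.43 (SE 0.09, adjusted p = 0.00185) for Psmb8 and 0.47 (SE 0.10, adjusted p = 0.00147) for Psmb9, and another Psmb9 probe gave 0.14 (adjusted p = 0.334). Tap1, a subunit of the transporter that carries the cut peptides, differed by 0.11 with its brightest probe and by 0.31 (adjusted p = 0.0159) with another.

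**Figure D2:**
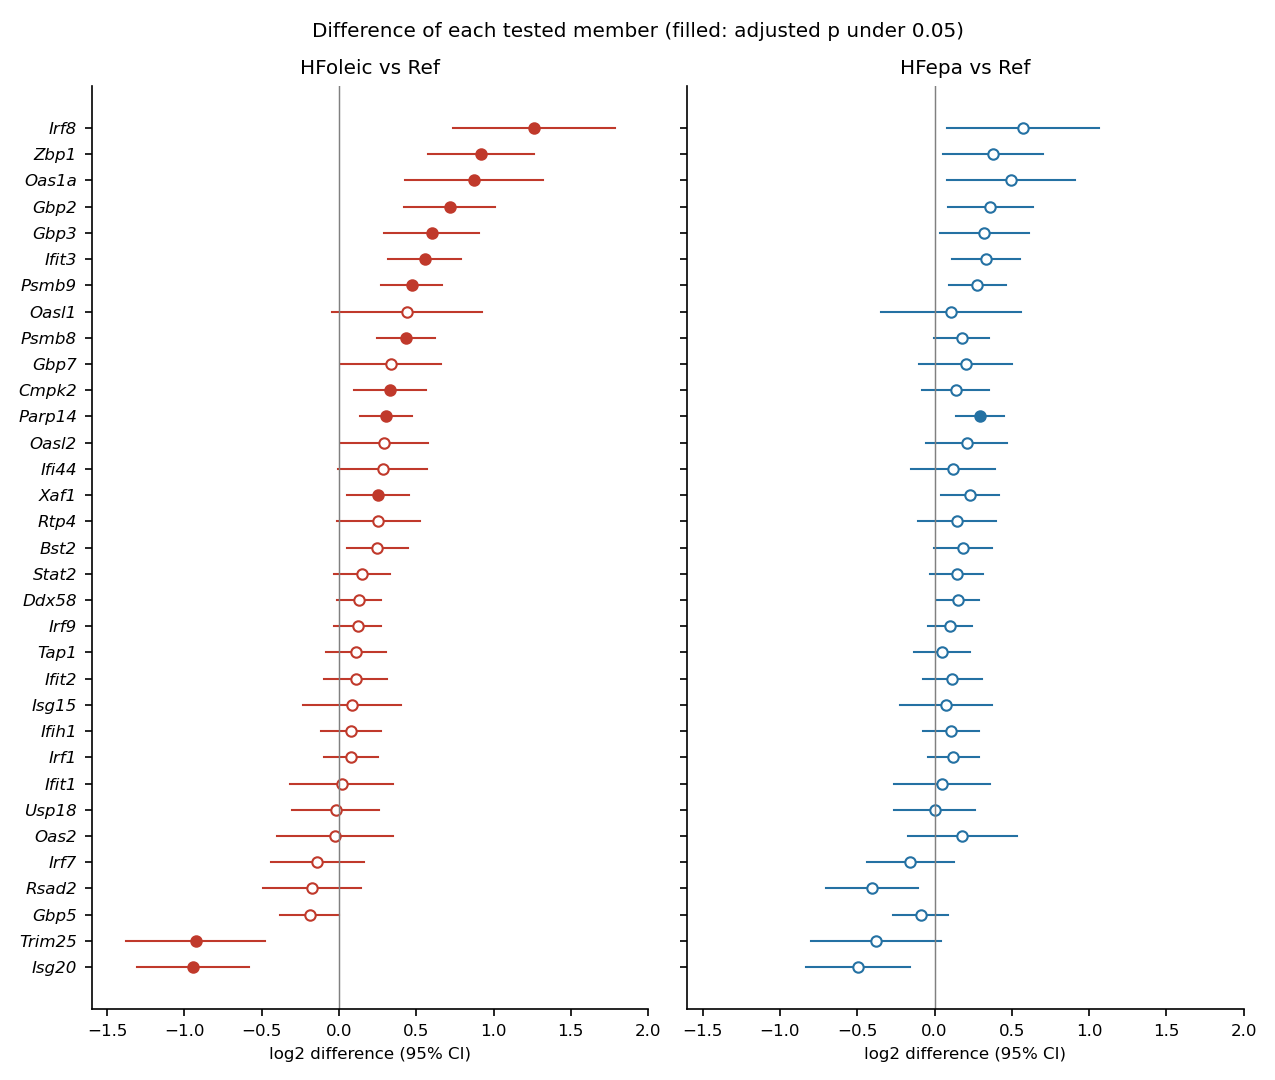
Log2 difference of each of the 33 tested members (points, with 95% confidence intervals as lines) in HFoleic vs. Ref and in HFepa vs. Ref, with genes in the same order in both panels and filled points where the limma adjusted p was under 0.05. In HFoleic vs. Ref 13 members were called, from -0.95 for Isg20 to 1.26 for Irf8, and in HFepa vs. Ref 1, Parp14.

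Several probes were tested for 18 of the members, and in HFoleic vs. Ref the call differed between the probes of 7 of them (Irf1, Trim25, Xaf1, Parp14, Gbp5, Psmb9 and Tap1). The sign differed for Trim25 and Gbp5, where 1 probe of each was called, and for Stat2 and Ifi44, where none was. Several of the second probes were dim, with mean log2 signals of 5.67 for Psmb9, 5.91 for Stat2, 5.97 for Ifi44 and 6.35 for Xaf1. Those of Irf1, Tap1, Gbp5 and Parp14 were at 6.80, 7.14, 8.425 and 9.35. The letters of the Trim25 and Gbp5 probes are printed because these differ in kind, with a run of alternating G and T in capitals. Coordinates are those of the array files, on mm9 and the plus strand, and the Gbp5 probes follow those of Trim25.

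Trim25, accession BC034276 (brightest): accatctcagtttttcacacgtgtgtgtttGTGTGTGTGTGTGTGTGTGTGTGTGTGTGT
Trim25, accession NM_009546, chr11:88881521-88881580: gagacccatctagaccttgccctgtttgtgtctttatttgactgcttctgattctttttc
Trim25, accession NM_009546, chr11:88878330-88878389: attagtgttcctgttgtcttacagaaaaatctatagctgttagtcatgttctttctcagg
Gbp5, accession ENSMUST00000197459 (brightest), chr3:142181426-142181485: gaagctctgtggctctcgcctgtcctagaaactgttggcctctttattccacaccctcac
Gbp5, accession NM_153564, chr3:142184779-142184838: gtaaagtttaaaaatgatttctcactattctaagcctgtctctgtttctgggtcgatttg

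The brightest Trim25 probe ends in 30 bases of alternating G and T. Its log2 signals were 14.48, 14.92 and 15.21 in Ref, 13.55, 13.86 and 14.51 in HFoleic, and 13.97, 14.42 and 15.24 in HFepa, and its HFoleic vs. Ref difference was -0.93 (SE 0.21, adjusted p = 0.00327). The brighter of the other Trim25 probes differed by 0.03 (adjusted p = 0.81) and the dimmer by 0.57 (adjusted p = 0.0692). The fall of Trim25 was therefore measured by 1 of 3 probes.

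Probes of 47 other genes shared a run of at least 20 bases with the brightest Trim25 probe on the same strand. Of these probes, 47 of 47 were called lower in HFoleic vs. Ref, with a median log2 difference of -0.83 and a range of -1.01 to -0.54, while 15.6% of all tested probes were called lower and their median was -0.03. Another 32 probes carried the run on the opposite strand, and 0 of these were called by limma, with a median of 0.18. In HFepa vs. Ref the 47 same-strand probes had a median of -0.34 and 0 were called. The part of the repeat in the Trim25 value was not tested.

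**Figure D3:**
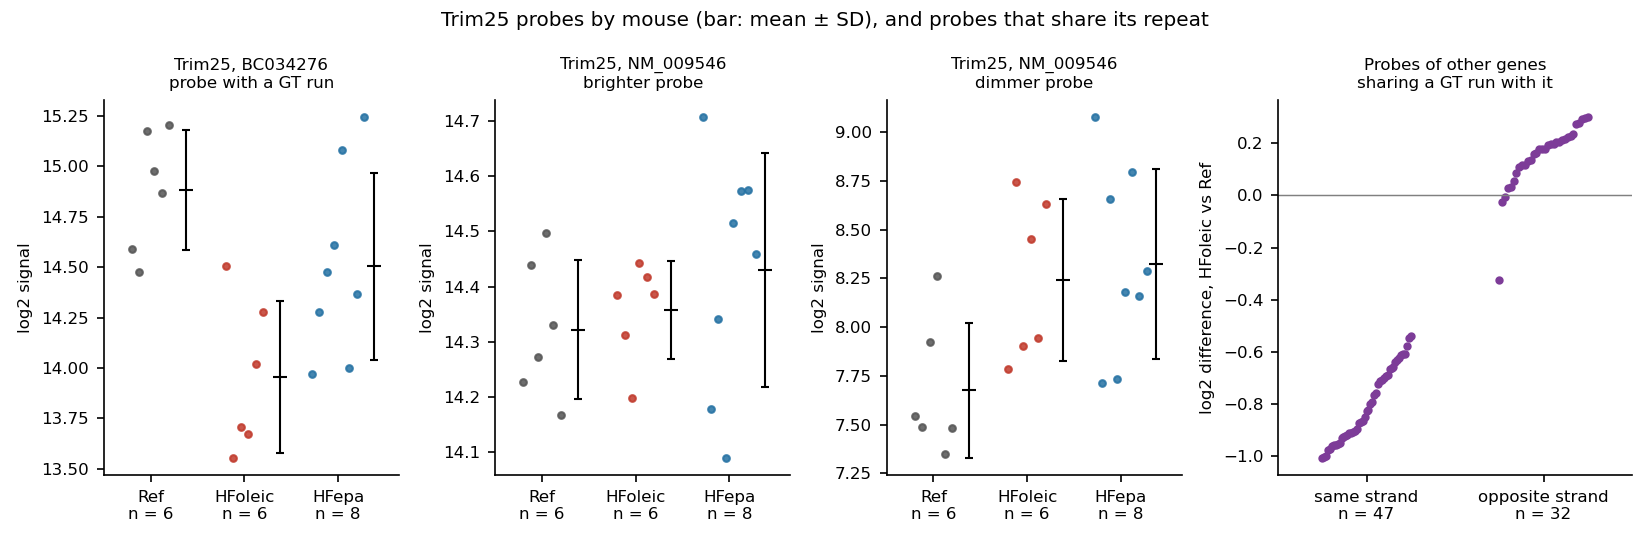
Log2 signal of the 3 Trim25 probes in each mouse (1 point per mouse, bar for the mean ± SD), and the HFoleic vs. Ref log2 difference of the probes of other genes that share at least 20 bases of the repeat, 47 on the same and 32 on the opposite strand. The probe with the run fell in HFoleic as did the 47 same-strand probes, from -1.01 to -0.54, while the brighter of the other Trim25 probes differed by 0.03.

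For Gbp5, a guanylate-binding protein that promotes inflammasome assembly, the probe of the RefSeq transcript NM_153564 had log2 signals of 7.59, 8.01 and 8.59 in Ref, 8.63, 8.96 and 9.14 in HFoleic, and 7.74, 8.44 and 8.95 in HFepa. The Ref and HFoleic mice did not overlap on this probe, and its difference was 0.91 (adjusted p = 0.00173), while the brightest probe gave -0.19 (adjusted p = 0.126). With the brightest probe of a RefSeq mRNA for every gene, a choice made after these values were seen, 13 members were called in HFoleic vs. Ref, 12 higher and 1 lower. With that choice 35.4% of the 15997 genes with such a probe were called.

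ISRE matches were found in members that passed the test and in members that did not. Of the 11 called members with a promoter in the table, 4 held the ISRE core (Ifit3, Oas1a, Gbp2, Gbp3). Of the 18 others, which include the untested Oas3, 10 held it, among them Isg15, Ifit1, Rsad2, Stat2 and Ifih1. The GAS letters were found in 4 of the 11 (Irf8, Oas1a, Isg20, Psmb8) and in 5 of the 18. The numbers are small and were not tested.

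Fewer members, and fewer of all tested genes, passed against Ref in the EPA lineage on the same diet. In HFepa vs. Ref, 1 of the 33 members was called, a share near the 2.46% of all tested genes (31.8% in HFoleic vs. Ref). The median log2 difference of the members was 0.14, beside -0.02 over all tested genes. The called member was Parp14, with a difference of 0.29 (SE 0.07, adjusted p = 0.0436), a call that held in 8 of the 20 fits that leave out 1 array. Its other probe gave 0.10 (adjusted p = 0.732). The 20 members not called in HFoleic vs. Ref had a median of 0.11 there and of 0.11 in HFepa vs. Ref. At an unadjusted p under 0.05, 12 of the 33 differed, 10 higher and 2 lower, beside 21.6% of all tested genes. No member was free of overlap between the HFepa and Ref mice, beside 267 of the 25618 tested genes.

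The members named in HFoleic vs. Ref gave the following values in HFepa vs. Ref, where the same Ref mice served as controls. Irf8 differed by 0.57 (adjusted p = 0.174) and Oas1a by 0.49, Zbp1 by 0.38 and Gbp2 by 0.36. Ifit3 differed by 0.33 (adjusted p = 0.0915), Gbp3 by 0.32, Psmb9 by 0.28 (adjusted p = 0.0913), Xaf1 by 0.23, Psmb8 by 0.18 and Cmpk2 by 0.14. Isg20 differed by -0.49 (adjusted p = 0.0976) and Trim25, with its repeat-bearing probe, by -0.38. Apart from Parp14, none of these passed the test.

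The direct comparison of the lineages under the high-fat diet gave no call in the fit without blocks or weights. In HFepa vs. HFoleic limma called 0 of the 33 members, beside 0% of all tested genes, and the member median was -0.06, beside 0.01 over all tested genes. At an unadjusted p under 0.05, 7 members differed, 2 higher and 5 lower, beside 20.8% of all tested genes. The differences farthest from 0 were those of Irf8, Trim25 and Zbp1. Irf8 differed by -0.69 (95% CI -1.18 to -0.20, adjusted p = 0.135), Zbp1 by -0.54 (95% CI -0.86 to -0.22, adjusted p = 0.119) and Trim25 by 0.55 (95% CI 0.13 to 0.97, adjusted p = 0.148). Isg20 differed by 0.45 (95% CI 0.12 to 0.79), Gbp2 by -0.36, Psmb8 by -0.26 and Psmb9 by -0.19. None of these passed, and a p above the threshold does not show that the lineages were alike. With the slide as a block, Zbp1 was called (-0.59, adjusted p = 0.044), and with array weights 5 members were called, Irf8, Zbp1, Isg20, Gbp2 and Psmb8, with 11.4% of all tested genes. Without the first HFoleic mouse, the lowest of its group for Irf8 and Zbp1, Irf8 differed by -0.86 (adjusted p = 0.0434) and Zbp1 by -0.71 (adjusted p = 0.0183). Both were called, with 4.36% of all tested genes. The first HFepa mouse was the highest of its group for Irf8 and Zbp1 and the lowest for Isg20. Without it, 4 members were called, with 7.72% of all tested genes. They were Irf8 at -0.84 (adjusted p = 0.0284), Zbp1 at -0.59, Isg20 at 0.54 and Psmb8 at -0.29.

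**Figure D4:**
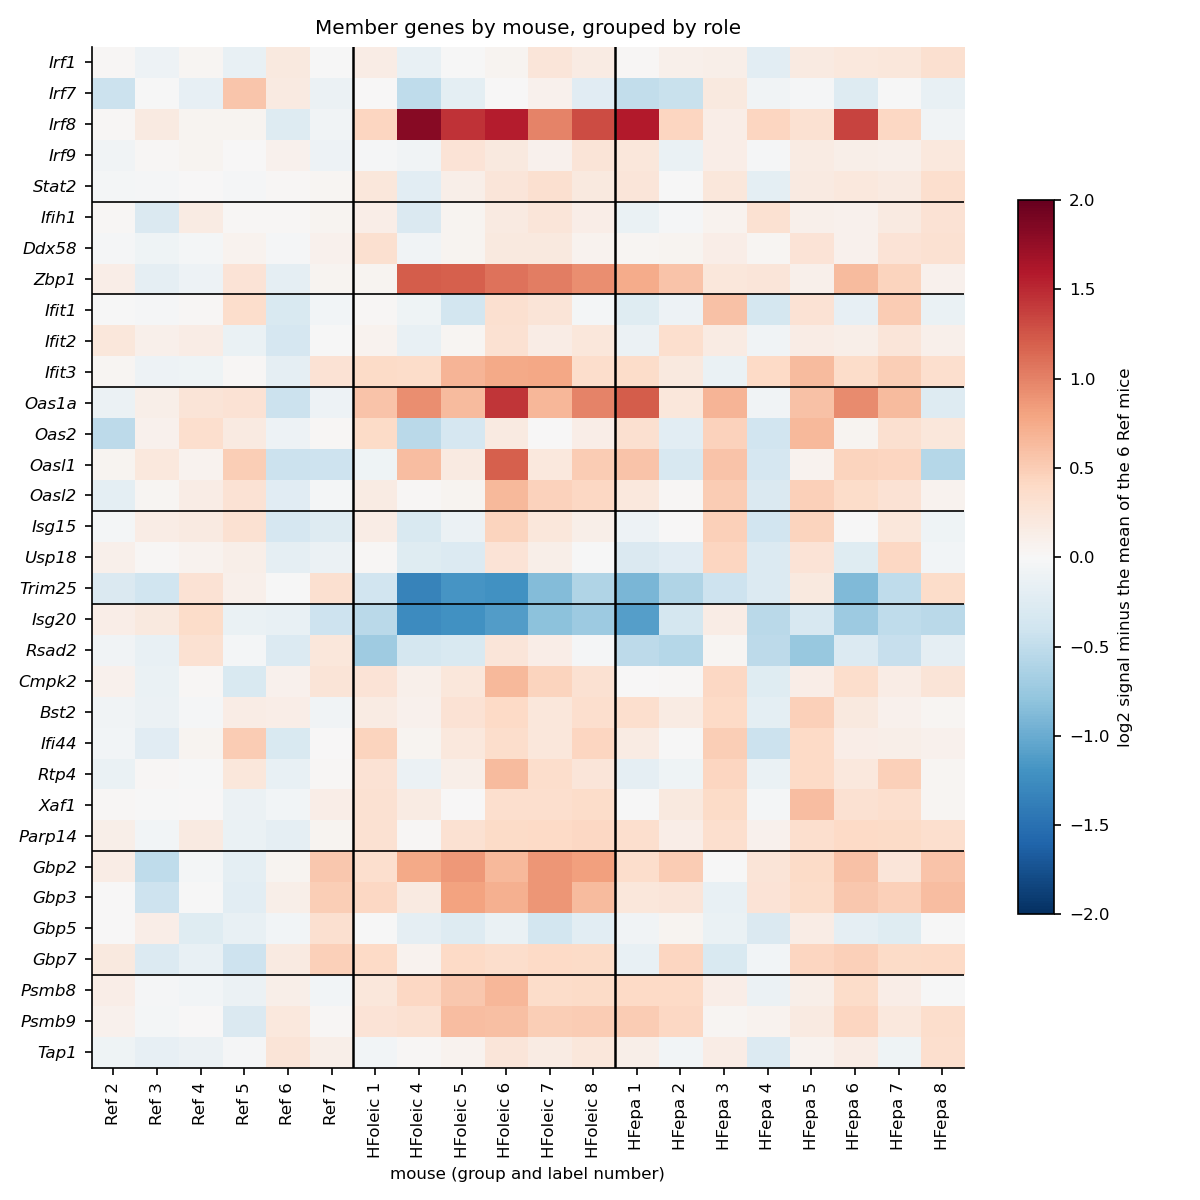
Log2 signal of the 33 tested members minus the mean of the 6 Ref mice (colour, red higher and blue lower), with 1 column per mouse, grouped as Ref, HFoleic and HFepa, and genes ordered by role. The HFepa columns differ among themselves, and over the 11 members that rose mice 1 and 6 had the highest means, 0.52 and 0.57.

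The mice of a group did not respond to the same extent. The 11 members that rose were averaged per mouse, relative to the Ref mean, as a description, since these genes were picked by the HFoleic and Ref values. This mean lay between -0.11 and 0.15 in the Ref mice, between 0.33 (mouse 1) and 0.80 (mouse 6) in the HFoleic mice, and between 0.12 (mouse 4) and 0.57 (mouse 6) in the HFepa mice. HFepa mouse 1 stood at 0.52, and the HFepa median was 0.32. In HFepa mouse 6, 11 of the 11 genes lay above all Ref mice, and in HFepa mouse 4, 2 of the 11. The 20 tested members that were not called moved differently among the mice. HFoleic mouse 6 lay above its group mean for 19 of these 20 and HFoleic mouse 4 for 2, and HFepa mouse 5 lay above for 17 and HFepa mouse 4 for 2. The median SD of a member within groups was 0.24 on the log2 scale, beside 0.17 over all tested genes.

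Most macrophage markers were also higher with the diet in the control lineage. Of 8 macrophage markers 7 were called higher in HFoleic vs. Ref, beside 15.2% of all tested genes, and the median log2 difference was 1.25. All 8 markers were well above background on all 20 arrays. Their mean log2 signal per mouse ran from 10.35 to 10.91 in Ref, from 11.37 to 12.58 in HFoleic and from 10.31 to 12.46 in HFepa, and their summed signal from 19822 to 31085, 43769 to 110130 and 19381 to 110733. In HFepa mice 1 and 6 the mean was 12.46 and 12.14, and in the other 6 it lay between 10.31 and 11.24. Of 5 markers of lipid-associated macrophages, the cells that gather around dying adipocytes, 5 were higher in HFoleic vs. Ref, with a median of 4.66, and their summed signal ran from 3508 to 7842 in Ref, 17079 to 72110 in HFoleic and 5667 to 95203 in HFepa. In HFepa vs. Ref limma called none of either list, beside 2.46% of all tested genes. The median log2 differences there were 0.45 for the 8 macrophage markers and 2.345 for the 5 of lipid-associated macrophages. At an unadjusted p under 0.05 (limma), 2 of the 8 and 5 of the 5 were higher, beside 21.6% of all tested genes that differed. The part of these cells in the member differences was not tested.

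Markers of the cells known for making interferon gave mixed values in HFoleic vs. Ref. Of all tested genes 31.8% were called there, 15.2% higher and 16.7% lower, and these short lists were not tested against that share. Of 4 markers of plasmacytoid dendritic cells, 2 were higher, Cox6a2 (2.41) and Pacsin1 (0.20), while Siglech and Ccr9 differed by -0.07 and -0.13 and did not pass. The mean log2 signals of Siglech and Ccr9 in Ref lay far apart, at 16.744 and 6.165. Of 6 NK cell markers 2 were higher, and limma called none of 6 T cell and 4 B cell markers. Of 4 tested markers of conventional dendritic cells 2 were higher, Flt3 (1.00) and Clec9a (0.78), and 1 was lower, Zbtb46 (-0.65). The 6 adipocyte markers were all tested, and 2 were lower. Of 6 epididymis markers 2 were tested, and their mean was highest in Ref mouse 3.

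Outside the members, 81 further genes of the pathway were listed by role, also with earlier results of these data known, and 74 were tested. In HFoleic vs. Ref 31 of the 74 were called, 26 higher and 5 lower, with a median of 0.16, beside 31.8% of all tested genes called, 15.2% higher and 16.7% lower. Of the 74, 2 were called in HFepa vs. Ref, both higher, a share near the 2.46% of all tested genes. In HFepa vs. HFoleic limma called 0, with 18 of the 74 at an unadjusted p under 0.05, 15 of them lower, beside 20.8% of all tested genes.

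No interferon transcript that was tested was called higher. Of 14 type I and III interferon genes listed, 12 had a probe and 8 were tested. Ifnb1, Ifna4, Ifna12 and Ifne were well above background on at most 1 of the 20 arrays, and Ifnz and Ifnl2 were not analysed here. Ifna11 was the only call of the 8 in HFoleic vs. Ref, with a log2 difference of -0.53 (adjusted p = 0.0361). The others ran from -0.19 for Ifnk to 0.09 for Ifnl3, with Ifna1 at -0.07, Ifna2 at -0.03, Ifna5 at -0.02, Ifna13 at -0.05 and Ifnab at -0.03. The probes of Ifna1, Ifna2, Ifna5 and Ifnab share runs of at least 20 bases with one another, and that of Ifna13 with one of Ifna12, so these genes cannot be separated. Ifng, the type II interferon, differed by 0.21 (95% CI -0.07 to 0.50, adjusted p = 0.252). The signals of the tested interferon genes were low. Their mean log2 values in Ref ran from 5.645 for Ifna13 to 7.383 for Ifna11, with Ifng at 5.939, beside 12.157 for Ifnar1. Differences between such dim signals, and a p above the threshold, do not show that these transcripts were unchanged.

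The subunits of the type I and of the interferon gamma receptor moved in opposite directions, 1 higher and 1 lower in each. With the diet in the control lineage (HFoleic vs. Ref), Ifnar2 was higher by 0.45 (adjusted p = 0.00259) and Ifnar1 fell by 0.26 (adjusted p = 0.0242). Ifngr2 was higher by 0.60 (adjusted p = 0.00802) and Ifngr1 fell by 0.32 (adjusted p = 0.0157). Il10rb, a subunit shared by the receptors of interferon lambda and interleukin 10, was higher by 0.67 (adjusted p = 0.00184), and Ifnlr1 differed by -0.24 (adjusted p = 0.675). In HFepa vs. Ref the same subunits gave 0.26 for Ifnar2, -0.03 for Ifnar1, 0.45 for Ifngr2, -0.07 for Ifngr1, 0.45 for Il10rb and -0.15 for Ifnlr1, and none was called.

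Among the remaining lists in HFoleic vs. Ref, 4 of 7 kinases and factors were called, 3 higher and 1 lower, 7 of 11 sensors and adaptors were called, 7 of them higher, and 4 of 8 inhibitors, 3 of them higher. Of 7 genes of MHC class I and peptide loading 4 were higher, and of 26 other interferon-stimulated genes 6 were higher. Over all tested genes the share called was 31.8%, and 15.2% higher, and lists this short were not tested against it. The smallest p-values belonged to Psmb10, Gbp6 and Ifit3b, each close kin of a member that rose. Psmb10, the third interferon-inducible proteasome subunit, had log2 signals of 13.65, 13.91 and 14.01 in Ref, 14.33, 14.55 and 14.57 in HFoleic and 13.72, 14.16 and 14.57 in HFepa, with a HFoleic vs. Ref difference of 0.67 (adjusted p = 0.00047). Gbp6 had 7.61, 8.39 and 9.03 in Ref, 8.97, 9.94 and 10.31 in HFoleic and 8.66, 9.004 and 9.65 in HFepa, with a difference of 1.44 (adjusted p = 0.000477). Ifit3b had 7.71, 8.09 and 8.66 in Ref, 8.73, 9.16 and 9.31 in HFoleic and 7.98, 8.75 and 8.82 in HFepa, with a difference of 0.96 (adjusted p = 0.000478). For Psmb10 and Ifit3b the Ref and HFoleic mice did not overlap, and for Gbp6 they did. The probes of Ifit3 and Ifit3b share no run above 8 bases. Only the probes were compared, and whether each also binds the transcript of the other gene was not tested.

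In HFepa vs. Ref the smallest p-values were those of Parp9, a partner of Dtx3l, with a log2 difference of 0.37 (adjusted p = 0.016), the double-stranded RNA receptor Tlr3, with 0.31 (adjusted p = 0.0446), and Ifit3b, with 0.51 (adjusted p = 0.0661). In HFepa vs. HFoleic they were those of Gbp6, with -0.79 (95% CI -1.25 to -0.34, adjusted p = 0.118), the single-stranded RNA receptor Tlr7, with -0.72 (adjusted p = 0.119), and the antiviral GTPase Mx1, with -0.51 (adjusted p = 0.125), none past the test.

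**Figure D5:**
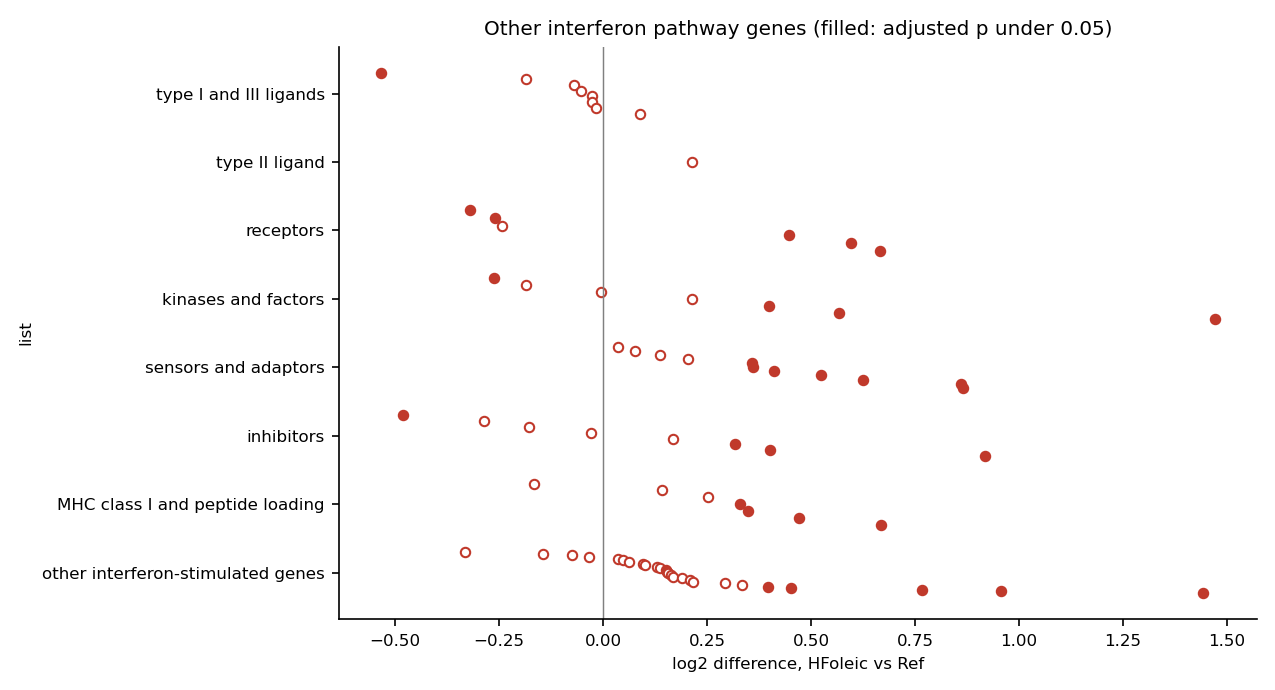
HFoleic vs. Ref log2 difference (horizontal axis) of the 74 tested genes of the wider interferon pathway, 1 point per gene, by list, filled where the limma adjusted p was under 0.05. The 8 ligand genes of types I and III lie between -0.53 and 0.09, while 26 genes of the other lists were called higher.

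Signal strength was alike across the arrays. The median signal per array was 83 to 114, between 66.06% and 71.88% of the spots were well above background, and 0 were saturated. Each of the 3 slides held mice of all 3 groups.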

How the data were processed

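RNA of 20 epididymal fat pads (1 per mouse) was hybridised with a single dye (Cy3) on Agilent mouse arrays and read with Agilent Feature Extraction 10.10.1.1, per the labels. The deposited scanner files hold, per the file headers, the median spot signal as an intensity, with coordinates on mm9. The authors also deposited a table of quantile-normalised log2 values, used here as an alternative.

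Following the study's methods, the median signal was put on the log2 scale and quantile normalised without background correction, using limma 3.58.1 in R 4.3.3 with data.table (version 1.17.8). Of 59305 non-control spots (56605 probes), 39390 probes were well above background on at least 6 arrays and were tested. Signals of spots marked non-uniform or population outlier (1171 values) were set missing, and 24 tested values were missing after averaging the spots of a probe. One mean per group was fitted to all 20 arrays, 3 contrasts were drawn with eBayes, and p-values were adjusted (Benjamini-Hochberg) over all tested probes, with calls at 0.05. The precision is limited by the number of arrays. P-values describe the spread between mice. Figures were drawn with Python 3.11.15, matplotlib 3.10.9 and numpy 2.4.6. The fit was tested on simulated data.

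The members and gene lists were chosen with earlier results of these data known. By rule, per-mouse ranges and statistics are given for the 12 members with the smallest p and the 3 farthest apart between HFepa and HFoleic, the other members by their differences, and of the pathway list the 3 genes with the smallest p per comparison and every ligand and receptor. Xaf1, Gbp5 and the other probes are given besides. The alternatives were processed signal minus its 75th percentile, normexp (offset 50), median centring, 2 filters on dim probes, marked spots kept, the mean over a gene's probes, slide or replicate number as a block, array weights, eBayes with trend, the compared groups only, the authors' log2 values, and each array left out. The replicate numbers come from the labels. Mice with the same number did not deviate together (correlations of -0.59 to 0.56), so the main fit has no block. All arrays share a washing batch, per the labels. Promoters are RefSeq's of GRCm38.p6.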

Additional observations from a re-analysis of the deposited data

Results flagged for a closer look

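In 5 of the 99 groups of values that the 33 members form (33 genes in 3 groups of mice), 1 mouse lay apart from the others of its group by Dixon's criterion, which chance does in about 1 in 20 groups. All 5 were the lowest of their group. Zbp1 was 7.602 in HFoleic mouse 1, with the next mouse at 8.474, and this is the value behind the overlap of the HFoleic and Ref mice for this gene. In HFoleic mouse 4, Parp14 was 11.652 (next 11.931), Gbp7 was 8.676 (next 8.951) and Ifih1 was 9.622 (next 9.958). Ifih1 was also lowest in Ref mouse 3, at 9.623 (next 9.925).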

How the results depend on the processing

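In HFoleic vs. Ref the number of members called stayed between 11 and 18 over the 14 alternatives and between 11 and 14 with 1 array left out, and the member median between 0.178 and 0.267 and, with 1 array left out, between 0.179 and 0.272. Of the other pathway genes 20 to 39 were called, and 28 to 36 with 1 array left out. The share of all tested genes called ran from 20.7% to 41.8% over the alternatives and from 25.9% to 34.6% with 1 array left out. Trim25 differed by 0.035 with a RefSeq mRNA probe (chosen after seeing the data) and by -0.11 with the mean of its probes, and Gbp5 by 0.91 and 0.36. Ifit1 turned to -0.038 with processed signal and to -0.001 with normexp, Oas2 to 0.018 with median centring, and Usp18 to 0.037 with the replicate block. With 1 array left out, Ifit1 ran from -0.044 to 0.094, Oas2 from -0.134 to 0.075 and Usp18 from -0.079 to 0.031. Xaf1 kept its call in 9 of the 14 alternatives and in 7 of 20 fits with 1 array left out, and Cmpk2 in 16 of 20. Parp14 gave 0.16 with the mean of its probes and was not called.

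With the replicate block, 11 members and 20 other pathway genes were called in HFoleic vs. Ref and 0 and 0 in HFepa vs. Ref. The shares of all tested genes called with this block were 21.1% and 0.0664%. Mice with the same number were not otherwise tied, and 0, 0 and 1 mice correlated best with their own number in the 3 comparisons.

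In HFepa vs. Ref, Parp14 was lost and 0 members were called with processed signal, median centring, no filter, the mean of probes and the compared groups only. With those settings 0.425% to 2.39% of all tested genes were called. With 1 array left out 0 to 5 were called, 5 without HFepa mouse 3 and 3 without Ref mouse 7. The shares of all genes called in these fits were 7.03% and 4.71%. Of the other pathway genes, 1 was called with median centring, no filter, the mean of probes or slide as a block, 4 with array weights, 0 with the compared groups only, and 1 to 9 with 1 array left out. Slide as a block called 1.91% of all tested genes, array weights 3.97%, and the fits with 1 array left out 0.39% to 7.03%. The member median stayed between 0.13 and 0.17, and between 0.11 and 0.19 with 1 array left out. Trim25 turned to 0.13 with the mean of its probes and 0.11 with a RefSeq mRNA probe.

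In HFepa vs. HFoleic, slide as a block called 1 member (Zbp1, -0.59, adjusted p = 0.044) and 1 other pathway gene, with 3.17% of all genes. Array weights called 5 and 11, with 11.4% of all genes. With 1 array left out, 0 to 4 members and 0 to 8 other pathway genes were called. The 4 members were called without HFepa mouse 1, with 7.72% of all genes. The member median stayed between -0.09 and -0.04, and between -0.09 and -0.015 with 1 array left out. The cause of these changes was not tested. The number of arrays, 6 to 8 per group, limits the precision.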
